A study of Mus musculus with 4 samples.

Results

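Adenosine production and purinergic signalling were followed through 10 genes, taken as the rows of the gene count table whose gene name is Nt5e, Entpd1, Ada, Adora2a, Adora2b, Adora3, P2rx4, P2rx7, P2ry6 or Slc29a1. All 10 were found among the 54532 genes listed. All 10 were among the 13715 genes kept because at least 1 library held at least 10 reads, and 8 had at least 10 reads in every library. Nt5e and Adora3 did not, and passed through the 4T1-CM libraries alone.

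The data are 4 bulk RNA-seq libraries of peritoneal macrophages from wild-type mice, 1 library for each condition. The macrophages were cultured in normal medium (0% 4T1) or in medium with 30% 4T1-CM, that is, supernatant of 4T1 cells, a mammary carcinoma line of the mouse. Each medium was combined with DMSO, the vehicle, or with 10 µM CH223191, an antagonist of the aryl hydrocarbon receptor (AHR), a transcription factor that binds small aromatic ligands. The design thus asks which genes respond to tumor cell products and which of these responses change when AHR is blocked. According to the methods, macrophages were elicited in BALB/c mice by thioglycollate broth, so they are inflammatory macrophages recruited to the peritoneum rather than resident cells. The methods do not say how long these libraries' cells were treated, or how many mice each library holds.

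ATP that leaves a stressed or dying cell is cut to AMP at the cell surface by CD39 (Entpd1), and AMP is cut to adenosine by CD73 (Nt5e). Adenosine then binds the P1 receptors, of which A2a and A2b raise cAMP in macrophages and restrain inflammatory cytokine production, until adenosine deaminase (Ada) converts it to inosine or an equilibrative transporter (Slc29a1) carries it into cells. ATP and UDP that are not degraded act on P2X channels and P2Y receptors, which drive inflammasome activation and phagocytosis.

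Because CH223191 acts on AHR, the start regions of these genes were searched for the core that AHR and its partner ARNT bind, written GCGTG, on both strands. RefSeq start windows (GRCm38.p6, 250 bases before to 50 bases after the start) were at hand for 8 of the 10 genes, in 17 windows. Adora2a and P2ry6 had no window and were not searched. The core was found in 7 of these windows, of the genes Nt5e, Entpd1, Ada, Adora2b and Slc29a1, and in 32.4% of all 32851 windows. For the enzymes and the adenosine receptor, 1 site each is shown with 10 bases on either side, 5′ to 3′ on the strand of the gene, with the core in capitals. The core of Adora2b lies on the opposite strand and reads CACGC.
Nt5e, chr9:88327461-88327485, core 138 bases before the RefSeq start: cctgcgggctGCGTGtgctgggcca
Entpd1, chr19:40612338-40612362, core 18 bases before the start: ccttagcggcGCGTGgttcccgtta
Ada, chr2:163750224-163750248, minus strand, core 2 bases after the start: tgtgggcgtaGCGTGggcggggctg
Adora2b, chr11:62248932-62248956, core 42 bases before the start: cccgtaaggcCACGCccccgccccc
A second core in the Ada window, 42 bases after the start, is not shown. The Nt5e and Ada sites overlap a 5′ untranslated exon of these genes in GENCODE M21. The longer form TNGCGTG, which holds the core, was found in windows of Ada and Slc29a1 and in 5.07% of all windows. The cAMP response element TGACGTCA was found in no window of the 8 genes and in 1.79% of all windows. The STAT motif TTCNNNGAA was found in 1 window, of Ada, and in 8.3% of all windows. The hypoxia response core ACGTG was found in 3 windows, all of Slc29a1, and in 19.6% of all windows. These are matches of letters and show no binding.

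Between 15535405 and 17557127 reads per library were assigned to genes, of which 0.633%, 1.17%, 1.76% and 1.79% came from the mitochondrial chromosome in the libraries normal medium DMSO, normal medium CH223191, 4T1-CM DMSO and 4T1-CM CH223191, the order of values throughout. This share was higher in 4T1-CM, and its part in the differences between the media was not tested. Levels are given as reads, as CPM (counts per library size after TMM scaling) or, for comparisons between genes, as TPM (which also divides by gene length). The 95% interval of a log2 ratio between 2 libraries covers counting error only, since no condition has a replicate. With 3 reads, a library of this depth gives between 0.171 and 0.189 CPM. The 7 macrophage markers, Adgre1 and Csf1r among them, had reads in every library and summed to 14028, 18261, 37499 and 40034 CPM. Lyz2 made up most of these sums, at 11888, 15185, 32957 and 35572 CPM. Gata6, Timd4 and Icam2, markers of resident peritoneal macrophages, summed to 3.75 to 5.60 CPM. Fibroblast markers summed to 63.0, 30.1, 149 and 127 CPM, with Lum at 0 in 3 libraries, and eosinophil markers to 16.2, 14.4, 6.17 and 5.79 CPM, with Prg2 and Epx at 0 in all 4. The marker sums of B cells, T cells, neutrophils, mast cells, dendritic cells, mesothelial cells and epithelial tumor cells each lay between 0 and 1.94 CPM in every library. In bulk RNA, more cells of a type and more RNA of a gene per cell cannot be told apart.

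**Figure D1:**
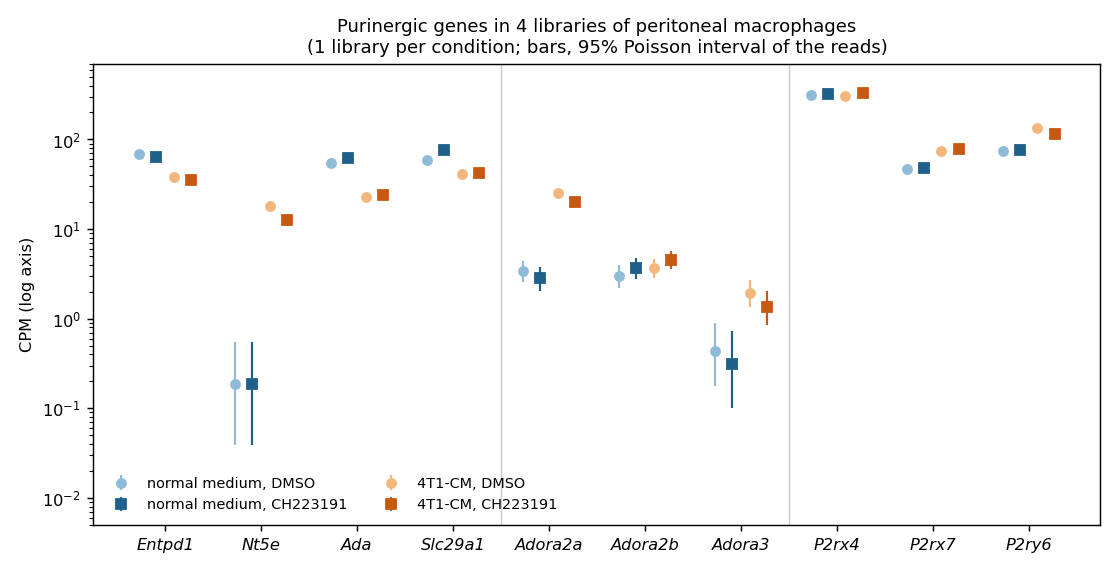
CPM on a log axis of the 10 genes in each library (circles, DMSO; squares, CH223191; blue, normal medium; orange, 4T1-CM), with the 95% Poisson interval of the reads. Nt5e sits at 0.188 and 0.189 CPM in normal medium and at 18.2 and 12.5 CPM in 4T1-CM, whereas P2rx4 stays above 300 CPM in all 4 libraries.

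In 4T1-CM the pair of surface enzymes that make adenosine moved in opposite directions: Nt5e (CD73) rose from nearly no reads, and Entpd1 (CD39) fell. Ada, which removes adenosine, and the transporter Slc29a1 fell as well, and of the adenosine receptors Adora2a and Adora3 rose. The P2 receptors P2rx7 and P2ry6 rose by less than 2-fold. These directions were seen with DMSO and with CH223191.

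With 4T1-CM against normal medium, 3 of the 10 genes were at least 2-fold higher with DMSO (12.2% of all 13715 genes were) and 1 was at least 2-fold lower (6.11% of all genes). With CH223191 the same 3 genes, Nt5e, Adora2a and Adora3, were at least 2-fold higher (12% of all genes) and the same gene, Ada, was at least 2-fold lower (7.86% of all genes). Both comparisons, which share no library, were met by 8.18% of all genes for higher and 3.38% for lower values. The median log2 ratio of the 10 genes was 0.46 in either comparison, against 0.01 with DMSO and 0.02 with CH223191 over all genes kept. The only test that these libraries allow is an additive fit, in which medium and inhibitor are 2 terms over the 4 libraries and are assumed not to interact, with 1 residual degree of freedom. By edgeR's quasi-likelihood test with Benjamini-Hochberg adjustment over all genes, 5 of the 10 genes were higher and 3 lower in 4T1-CM, where 16.4% and 16.2% of all genes were. Nt5e and Adora3 are among these 5 and among the 3 genes at least 2-fold higher. Both were kept only through the 4T1-CM libraries, where they were high, so these counts are no separate support for their rise. Nothing in the labels says whether libraries came from separate cultures or mice. No condition has a replicate, so the 1 residual degree of freedom holds the departure from additivity of medium and inhibitor. The p-values of this fit rest on that departure, pooled in part across genes, and do not measure a spread between replicates.

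**Figure D2:**
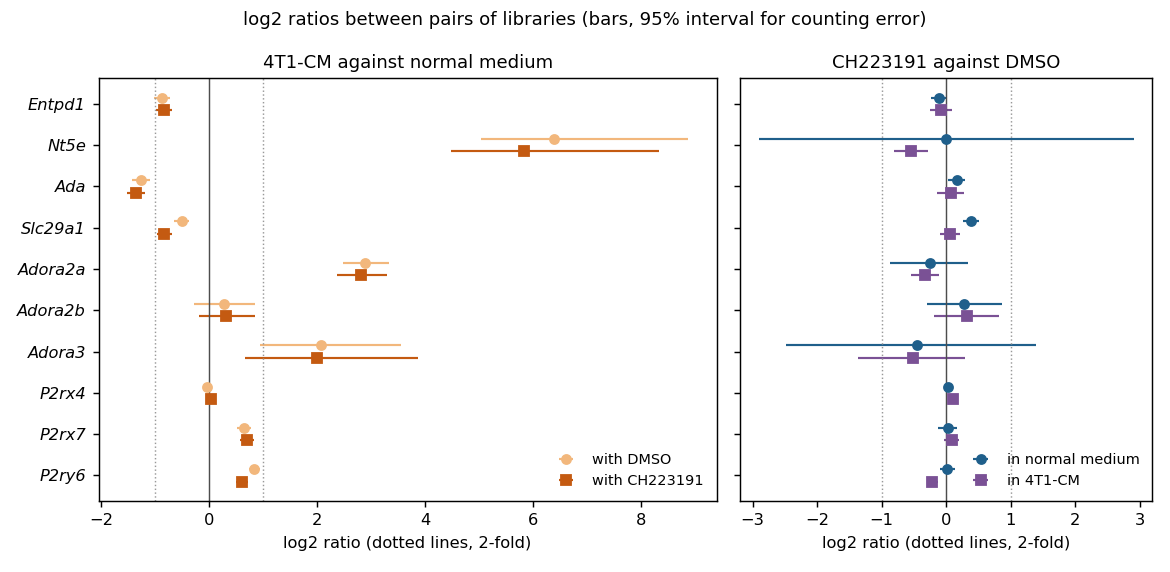
log2 ratios of the 10 genes between pairs of libraries: left, 4T1-CM against normal medium with DMSO (circles) and with CH223191 (squares); right, CH223191 against DMSO in normal medium (circles) and in 4T1-CM (squares). Bars are 95% intervals for counting error, dotted lines mark 2-fold, and on the left the 2 intervals of every gene but P2ry6 and Slc29a1 overlap.

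Nt5e (ENSMUSG00000032420) lies on the plus strand of chromosome 9 from 88327197 to 88372092 and encodes CD73, the 5′-nucleotidase that produces extracellular adenosine. It had 3 reads in either normal medium library, 319 in 4T1-CM with DMSO and 203 where CH223191 was added to 4T1-CM. Both 4T1-CM libraries lay far above both normal medium libraries. The ratio of scaled reads between the media was 96.8 with DMSO (95% interval 32.8 to 472) and 66.2 with CH223191 (22.3 to 324), and the wide intervals come from the 3 reads in each denominator. In the additive fit the log2 change was 6.29 (edgeR quasi-likelihood adjusted p = 2.41e-07). Nt5e was kept only through the 4T1-CM libraries, where it was high, so this p-value is no separate support for the rise. Per length, Nt5e was nonetheless among the lower genes of the set in 4T1-CM, at 5.91 TPM with DMSO and 3.99 TPM with CH223191. CD73 is also found on fibroblasts, whose marker sum of 63.0, 30.1, 149 and 127 CPM was higher in 4T1-CM too, and its part in the Nt5e values was not tested. The collagen genes Col1a1, Col1a2 and Col3a1 made up most of that sum. Dcn was higher in 4T1-CM as well, at 2.20, 2.83, 9.83 and 8.56 CPM. Pdgfra was at 5.71, 3.08, 4.74 and 4.31 CPM and did not separate the media.

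Entpd1 (ENSMUSG00000048120; chromosome 19, 40612366 to 40741602, plus strand) encodes CD39, which cuts ATP and ADP to AMP. Its reads were 1101, 1018, 661 and 580, so that both 4T1-CM libraries were below both normal medium libraries. The log2 ratio was -0.87 with DMSO (95% interval -1.01 to -0.73) and -0.84 with CH223191 (-0.99 to -0.69). The fall passed the additive fit (edgeR quasi-likelihood adjusted p = 0.00046) and stayed under 2-fold. In TPM, Entpd1 remained above Nt5e in every library, with 38.9 against 0.069 in the DMSO library of normal medium and 18.9 against 5.91 in that of 4T1-CM. The processed pseudogene Gm8783, annotated over Entpd1 on the same strand, had 5 to 21 reads.

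Ada (ENSMUSG00000017697; chromosome 2, 163726584 to 163750239, minus strand) encodes adenosine deaminase. It had 878, 981, 403 and 392 reads, and the groups by medium did not overlap. The log2 ratio was -1.26 with DMSO (-1.43 to -1.09) and -1.35 with CH223191 (-1.53 to -1.18), a 2.39-fold and a 2.55-fold lower level. The fall passed the additive fit (edgeR quasi-likelihood adjusted p = 3.08e-05). In TPM, Ada went from the second of the 10 genes in normal medium with DMSO, at 86.4, to 32.1 in 4T1-CM with DMSO.

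Slc29a1 (ENSMUSG00000023942; chromosome 17, 45585200 to 45599606, minus strand) encodes ENT1, the transporter that lets adenosine equilibrate across the plasma membrane. Its reads were 932, 1207, 718 and 694, with the highest value in normal medium with CH223191 and both 4T1-CM values below both normal medium values. The log2 ratio was -0.51 with DMSO (-0.65 to -0.37) and -0.83 with CH223191 (-0.97 to -0.69), and the fall passed the additive fit (edgeR quasi-likelihood adjusted p = 0.00319). An antisense gene, Gm17080, covers 6.86% of its exon bases and had 0 to 5 reads. Whether the counting used strand is not stated.

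**Figure D3:**
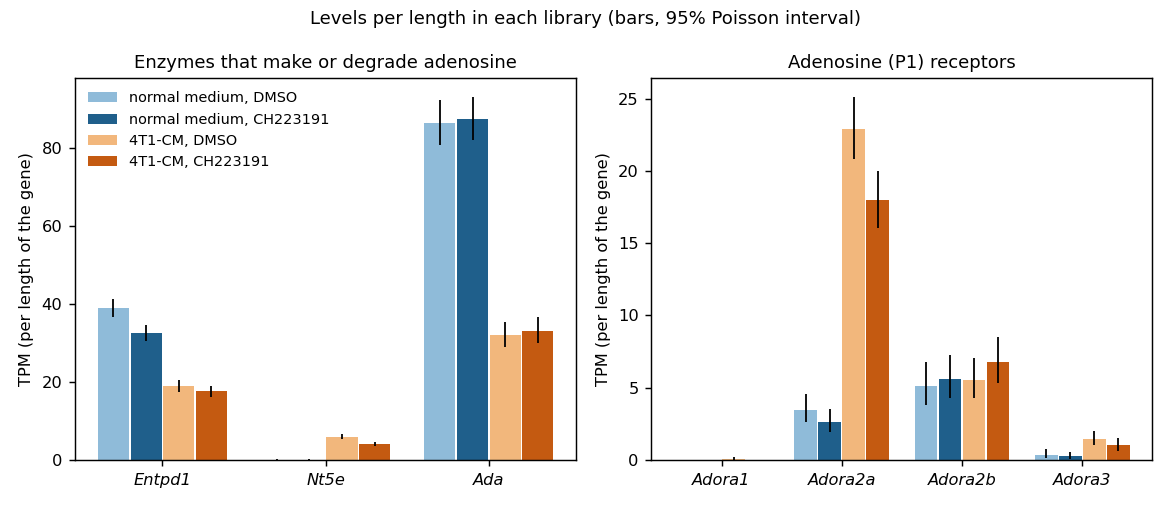
TPM in each library of the enzymes that make or degrade adenosine (left) and of the 4 adenosine receptors (right), with the 95% Poisson interval of the reads. In 4T1-CM Entpd1 and Ada are lower and Nt5e is visible, and Adora2a stands above Adora2b in both 4T1-CM libraries but below it in both normal medium libraries.

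Adora2a (ENSMUSG00000020178; chromosome 10, 75316877 to 75334784, plus strand) encodes the A2a receptor, the high-affinity adenosine receptor coupled to cAMP. It had 54, 45, 440 and 325 reads, or 3.39, 2.83, 25.1 and 20.0 CPM. Each 4T1-CM library was thus several times above each normal medium library. It was 7.36-fold higher with DMSO (log2 ratio 2.88, 95% interval 2.48 to 3.33) and 7.01-fold higher with CH223191 (2.81, 2.37 to 3.31), and the rise passed the additive fit (edgeR quasi-likelihood adjusted p = 1.69e-06). No other gene's exon bases or 50-base words were shared with Adora2a.

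Adora2b (ENSMUSG00000018500; chromosome 11, 62248984 to 62266453, plus strand) encodes the low-affinity A2b receptor. It had 48, 58, 64 and 74 reads, values that lay close together in all 4 libraries. The log2 ratio of 4T1-CM to normal medium was 0.28 with DMSO (-0.28 to 0.85) and 0.32 with CH223191 (-0.19 to 0.84). These bounds include differences in either direction, and the additive fit gave an edgeR quasi-likelihood adjusted p = 0.396. In normal medium Adora2b was at 5.12 TPM with DMSO and Adora2a at 3.47 TPM, with overlapping Poisson intervals, and with CH223191 at 5.61 against 2.62 TPM. In 4T1-CM the order was turned, with Adora2a at 22.9 TPM and Adora2b at 5.53 TPM with DMSO, and 17.9 against 6.78 TPM with CH223191.

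Adora3 (ENSMUSG00000000562; chromosome 3, 105870858 to 105908926, plus strand) encodes the A3 receptor, which is coupled to Gi and lowers cAMP. It was scarce, with 7, 5, 34 and 22 reads, and both 4T1-CM values were above both normal medium values. The log2 ratio was 2.07 with DMSO (0.95 to 3.56) and 2.01 with CH223191 (0.67 to 3.86). The rise passed the additive fit with edgeR's quasi-likelihood test (adjusted p = 0.0137) but not with DESeq2 in the same design (adjusted p = 0.13). Adora3 was kept only through the 4T1-CM libraries, where it was high, so the edgeR call is no separate support for the rise. Tmigd3 shares 20.9% of the exon bases of Adora3 on the same strand and had 0 or 1 read, so reads of the shared exons may be assigned to either gene or to none. The fourth adenosine receptor, Adora1 (A1), had 2 reads in 4T1-CM with DMSO and 0 in the other libraries.

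P2rx4 (ENSMUSG00000029470; chromosome 5, 122707544 to 122729738, plus strand) encodes an ATP-gated channel of the plasma membrane and lysosomes. With 4982, 5068, 5337 and 5304 reads it was the most deeply covered of the 10 genes. Its log2 ratio of 4T1-CM to normal medium was -0.04 with DMSO (-0.09 to 0.02) and 0.03 with CH223191 (-0.02 to 0.09), and the additive fit gave an edgeR quasi-likelihood adjusted p = 0.999. The intervals are narrow because reads were plentiful, but they cover counting error only. With 1 library per condition they do not bound the difference between the media. With the trend with gene length subtracted, the log2 ratio with CH223191 was -0.09.

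P2rx7 (ENSMUSG00000029468; chromosome 5, 122643911 to 122691432, plus strand), the neighbour of P2rx4, encodes the ATP-gated channel that triggers the NLRP3 inflammasome. Its reads were 751, 761, 1288 and 1265, with both 4T1-CM libraries above both normal medium libraries. The log2 ratio was 0.64 with DMSO (0.51 to 0.77) and 0.70 with CH223191 (0.57 to 0.83), a 1.56-fold and a 1.63-fold higher level, and passed the additive fit (edgeR quasi-likelihood adjusted p = 0.00198).

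P2ry6 (ENSMUSG00000048779; chromosome 7, 100937630 to 100974649, minus strand) encodes the UDP receptor. It had 1190, 1201, 2333 and 1868 reads, with the highest value in 4T1-CM with DMSO. The log2 ratio was 0.84 with DMSO (0.73 to 0.94) and 0.61 with CH223191 (0.50 to 0.71), and the rise passed the additive fit (edgeR quasi-likelihood adjusted p = 0.00165). Per length, P2rx4 at 139.7 TPM was the highest of the 10 genes in normal medium with DMSO, followed by Ada at 86.4 and P2ry6 at 81.2 TPM, whose Poisson intervals overlapped. In 4T1-CM with DMSO, P2ry6 at 129 and P2rx4 at 121 TPM headed the order with overlapping intervals, and P2rx7 at 34.4, Ada at 32.1 and Slc29a1 at 28.5 TPM followed, each overlapping its neighbour. In 4T1-CM with CH223191, P2rx4 at 128 TPM was above P2ry6 at 109 TPM, and their intervals did not overlap.

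CH223191 moved none of the 10 genes by 2-fold. Whether AHR was blocked in these libraries was not tested. Of all genes in normal medium, 4.84% lay that far above and 3.31% that far below the DMSO library, and for 4T1-CM these shares were 2.75% above and 2.66% below. The median log2 ratio of the 10 genes for CH223191 was 0.02 under normal medium and -0.01 under 4T1-CM, against 0.00 over all genes in both. In the additive fit 0 of the 10 genes passed for the inhibitor, with edgeR quasi-likelihood adjusted p-values from 0.787 to 0.955. No gene of the 10 had an unadjusted p under 0.05, and DESeq2 also called 0, with Adora2b and Adora3 given no adjusted p. Among all genes, 0.0729% were called higher and 0.00729% lower with edgeR.

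Several genes differed between CH223191 and DMSO by more than counting error, always by less than 1.5-fold. In 4T1-CM Nt5e was at 203 reads with CH223191 and 319 with DMSO, a log2 ratio of -0.54 (-0.81 to -0.29), and Adora2a at 325 and 440, a log2 ratio of -0.33 (-0.54 to -0.12). P2ry6 was also lower with CH223191 in 4T1-CM, at -0.21 (-0.30 to -0.12), and P2rx4 higher, at 0.10 (0.04 to 0.15). The fibroblast marker sum in the same libraries was 127 CPM with CH223191 and 149 CPM with DMSO, and its part in the lower Nt5e was not tested. In normal medium Slc29a1 was higher with CH223191, at 0.38 (0.25 to 0.50), and Ada at 0.16 (0.03 to 0.30). With the trend with gene length subtracted these were 0.36 for Slc29a1 and 0.06 for Ada. Scaling by total counts gave 0.32 and 0.11, so the difference of Ada depended on the processing. For Nt5e in normal medium, 3 reads against 3 leave a log2 ratio anywhere from -2.90 to 2.90.

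Whether the response to 4T1-CM itself differed with the inhibitor was described by the difference of the 2 log2 ratios, CH223191 minus DMSO. Its interval included 0 for all of the 10 genes but P2ry6 and Slc29a1. How often it did so over all genes was not counted, and its width depends on the reads of a gene. For Nt5e the difference was -0.55 (-2.70 to 1.61) and for Adora2a -0.07 (-0.68 to 0.53), so that the reads do not settle whether these responses were smaller. Beyond counting error, the log2 ratio of P2ry6 was smaller with CH223191, by -0.23 (-0.37 to -0.08), and that of Slc29a1 more negative, by -0.32 (-0.51 to -0.12). Both differences rest on 4 libraries with no replicate, and no test of them across samples was possible. Log2 ratios followed gene length weakly across the 13715 genes in the comparison of CH223191 with DMSO in normal medium (Spearman's rho -0.21) and in that of 4T1-CM with normal medium with CH223191 (0.19).

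Beyond the 10 genes, 58 others of ATP release, nucleotide and adenosine metabolism, nucleoside transport, P1 and P2 receptors and cAMP signalling were listed, of which 40 were kept. Past 2-fold in 4T1-CM, 11 of the 40 were higher and 1 was lower, with DMSO (12.2% and 6.11% of all genes) as with CH223191 (12% and 7.86%). In both comparisons at once 10 were higher and 0 lower (8.18% and 3.38% of all genes), and of these Gja1, P2rx5 and P2ry12 reached the 10 reads only in 4T1-CM. In the additive fit 10 were called higher and 8 lower for 4T1-CM, and 0 for the inhibitor (edgeR quasi-likelihood test), where 16.4% and 16.2% of all genes were called higher and lower for 4T1-CM. DESeq2 in the same design called 8 higher and 3 lower. For CH223191 against DMSO in normal medium, 1 of the 40 was at least 2-fold higher and 0 lower (4.84% and 3.31% of all genes). In 4T1-CM, 0 were higher and 1 lower with CH223191 (2.75% and 2.66%). DESeq2 did not call P2rx5, P2ry12, Panx1, Calhm2, Ahcy, P2ry1 and Gnas for the medium (adjusted p from 0.054 to 0.316), which are given here by edgeR's call alone. The median log2 ratio of the 40 was -0.03 with DMSO and 0.09 with CH223191.

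Among the ectoenzymes, 2 of the 3 other genes kept rose. Cd38, which degrades NAD to products that can feed adenosine production without CD39, had 75, 105, 4844 and 4941 reads, a log2 ratio of 5.87 with DMSO (5.55 to 6.23) and 5.52 with CH223191 (5.25 to 5.82). Bst1 (CD157), its homologue, had 997, 1169, 4449 and 4304 reads and log2 ratios of 2.02 (1.92 to 2.12) and 1.85 (1.76 to 1.94). Enpp1, which makes AMP from ATP, had 470, 574, 677 and 590 reads and was not called by the additive fit. Entpd2, Entpd3, Entpd8, Enpp3 and Alpl had at most 9 reads in any library.

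Of 5 genes of ATP release that were kept, the connexin Gja1 rose, from 5 and 6 reads in normal medium to 51 and 45 in 4T1-CM, while the channels Panx1 and Calhm2 fell by edgeR but not by DESeq2 (fitted log2 changes of -0.48 and -0.69, DESeq2 adjusted p = 0.186 and 0.098). Of 7 other genes of adenosine breakdown and salvage, the AMP deaminase Ampd3, which takes AMP away from adenosine formation inside the cell, rose from 590 and 564 to 1704 and 1456 reads. The cytosolic nucleotidase Nt5c fell by both tools (-1.03), and Ahcy (-0.66) by edgeR alone (DESeq2 adjusted p = 0.054). Among the transporters the lysosomal carrier Slc29a3 fell (-0.60), with 3950, 4603, 3281 and 2689 reads.

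Of the P2 receptors outside the 10 genes, P2ry12, the ADP receptor known from platelets and microglia, had 0 and 0 reads in normal medium and 30 and 34 in 4T1-CM. It was called by edgeR and not by DESeq2 (adjusted p = 0.21). P2rx5 had 7, 9, 33 and 21 reads, and P2ry1, a second ADP receptor, had 169, 133, 109 and 104 reads (-0.58). Both were likewise called by edgeR and not by DESeq2 (adjusted p = 0.263 and 0.316). The other P2 receptors kept were not called by edgeR for the medium. Their reads were 1055, 1322, 1138 and 1135 for P2ry2, 164, 139, 180 and 129 for P2ry14, and 6, 3, 14 and 4 for P2ry13.

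Among 13 genes of cAMP signalling, 4 were called higher and 2 lower by edgeR in the additive fit, beside 16.4% and 16.2% of all genes. The cAMP phosphodiesterase Pde4b went from 22 and 47 reads in normal medium to 626 and 559 in 4T1-CM, and Pde4d from 56 and 39 to 133 and 176. Crem, a cAMP-induced transcription factor, had 131, 138, 316 and 284 reads, and the early response gene Nr4a1 had 12, 18, 111 and 101. Gnas, which encodes the stimulatory G protein subunit that couples A2a and A2b to adenylyl cyclase, had 2566, 1301, 686 and 798 reads, a log2 ratio of -2.04 with DMSO (-2.16 to -1.92) and -0.74 with CH223191 (-0.86 to -0.61), and was not called by DESeq2 (adjusted p = 0.0968). The adenylyl cyclase Adcy7 fell by both tools (-0.62), while Adcy3, Adcy9 and Pde4a were not called. The difference of the 2 log2 ratios, CH223191 minus DMSO, was 1.30 for Gnas (1.13 to 1.48) and 1.02 for Pde4d (0.35 to 1.69). For Pde4b it was -1.14 (-1.88 to -0.40). Smaller differences past counting error were seen for Adcy3, Adcy9, Prkar1a and Creb1. Outside the cAMP list they were seen for Calhm2, Enpp1, Bst1, Entpd5, Entpd7, Pnp, Nt5c, Slc29a3 and P2ry2. The additive fit assumes that such differences are absent.

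**Figure D4:**
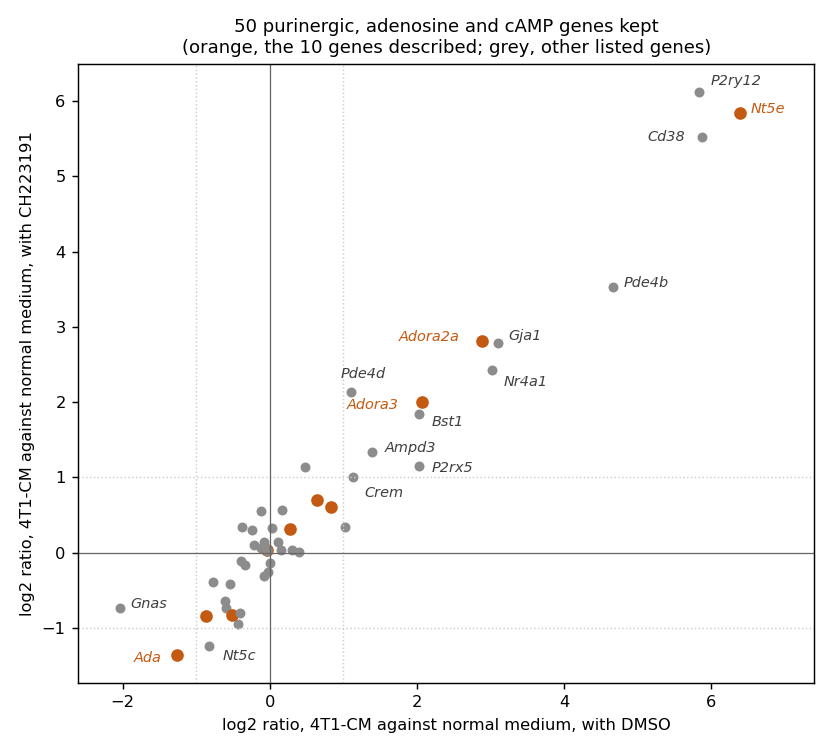
log2 ratios of 4T1-CM to normal medium with DMSO (x axis) and with CH223191 (y axis) for the 50 listed genes kept (orange, the 10 genes described first; grey, 40 others), with 2-fold marked by dotted lines. Nt5e, P2ry12 and Cd38 lie at the upper right and Ada and Gnas at the lower left; the place of P2ry12 depends on the prior count of 0.5, as it had 0 reads in normal medium.

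The genes whose pattern over the 4 libraries lay nearest to that of each strongly changed gene were searched among those that averaged 10 CPM or more, by the Euclidean distance between centred log2 CPM. With 4 libraries of which 2 differ by medium, many genes lie close, and the distances describe these libraries only. Nearest to Nt5e were Clec4e (distance 0.25), the pattern recognition receptor Mincle, with 64, 81, 6396 and 4354 reads, then Cav1 (0.62) and Epha4 (0.70). Nearest to Ada were Lpl (0.05), encoding lipoprotein lipase, with 72405, 83364, 34883 and 33842 reads, Amdhd2 (0.06) and St3gal5 (0.07). Nearest to Adora2a were the gene Gm36161 (0.15) and Tnip3 and Bcl3 (both 0.25), 2 regulators of NF-kB signalling, and nearest to Adora3 were Tmem119 (0.14), Cd24a (0.16) and Tent5c (0.19).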

How the data were processed

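Total RNA was extracted with TRIzol and libraries were made with the NEBNext Ultra RNA kit. The authors deposited raw read counts of each gene (whole numbers, not normalized) in 1 table with gene coordinates and the deposited gene lengths in bases (no standard unit). The submitters' processing notes name HISAT2 2.0.5 and DESeq2. The methods name FeatureCounts for the bulk RNA-seq of alveolar macrophages, and it is not said whether it also counted these libraries. Their strand setting and genome build are not given in the sources used here. The coordinates of all 10 genes were identical to GENCODE M21 (GRCm38), as were those of 53499 of 54409 genes shared with it. A total of 4 columns of counts were matched to samples by name.

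The filter was 10 reads or more in any library. Libraries were scaled by TMM (edgeR 4.0.16, R 4.3.3), and log2 ratios were taken with a prior count of 0.5. Intervals (95%) are exact Clopper-Pearson intervals for how a gene's reads divide between 2 libraries, or Poisson intervals for a level, and cover counting error only. A gene was called at 2-fold. The additive model with medium and inhibitor as terms was fitted over all genes with edgeR's quasi-likelihood test (adjusted p under 0.05), and with DESeq2 1.42.0 as an alternative. Other alternatives were DESeq2 size factors, total counts, no filter, a minimum of 10 reads in all 4 libraries, a prior of 5, only protein-coding genes and a gene length trend subtracted. Motifs and shared 50-base words were searched with Python 3.11.15. Figures were drawn with matplotlib 3.10.9.

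The 10 genes, the pathway lists and the marker lists were chosen with earlier results of these data known. Of the other listed genes the text names those that 4T1-CM changed 2-fold or more in 1 direction with DMSO and with CH223191 and any needed to give a list in full, and for each of the 10 genes so changed the 3 genes nearest in pattern. Genes annotated over one of the 10 are named with their reads.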

Additional observations from a re-analysis of the deposited data

How the results depend on the processing

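With 1 library per condition, leaving out a replicate was not possible, and no paired analysis was possible because each condition has a single library. Requiring at least 10 reads in every library removed Nt5e and Adora3 by its construction, so that 1 of the 10 genes was at least 2-fold higher in 4T1-CM with DMSO and 1 with CH223191. Under size factors of DESeq2, total counts, no filter, protein-coding genes alone, a prior count of 5 and the length trend subtracted, the counts of genes at least 2-fold changed stayed within 1.5 times, and no log2 ratio of the 10 genes called at 2-fold changed sign. With the length trend subtracted, 3 of 40 log2 ratios left their counting interval, all for 4T1-CM against normal medium with CH223191: Ada -1.16, P2rx4 -0.09 and P2ry6 0.72. With total counts, 1 of 40 did, that of P2rx4 for CH223191 against DMSO in normal medium (-0.03). In the additive fit the adjusted p of Adora3 rose from 0.0137 to 0.13 with DESeq2, the cause of which was not tested. Of the 40 other listed genes, edgeR called 10 higher and 8 lower for the medium and DESeq2 8 higher and 3 lower. Over all 13715 genes, edgeR called 4476 for the medium and DESeq2 2452. For the inhibitor edgeR called 11 (880 at an unadjusted p under 0.05) and DESeq2 15, against 0 with DESeq2 size factors, total counts or protein-coding genes alone, and 193 with no filter.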
